A study of Mus musculus with 6 samples.

Results

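Gata1, Epor, Hemgn, Alas2, Slc4a1, Ank1, Kel and Trim10 are genes of the red cell lineage that encode no globin, and they run from a transcription factor and a cytokine receptor to a heme enzyme and proteins of the cell membrane. They were picked by symbol from the table of genes that the authors deposited for whole embryonic mouse hearts, in which all 8 have a row among 1577 listed genes. RNA-seq compared 3 hearts labelled WT, called control here, with 3 hearts of a hypomorphic Nkx2-5 line, in which the cardiac homeobox factor NKX2-5 is made at a reduced level. All embryos were C57BL/6 at E11.5, the controls were littermates of the hypomorphs, and total RNA of each heart was used. The labels give neither the sex of the embryos nor the alleles of the hypomorph, for which the study's methods name genotyping of an Nkx2-5-gfp line and of Nkx2-5-IRES-Cre mice.

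A gene has a row only if it passed the authors' AC test, a test on read counts, with a fold change of at least 1.5 between the groups. The choice of the 8 genes therefore used this same contrast, so that the differences below are descriptions and carry no test. For each gene and group the table holds 1 raw value, the authors' mean of estimated reads before normalization, and 1 normalized value, the authors' mean given as log2 and set against a baseline of that gene. No value for a single heart was used here. It cannot be said from these values how far the hearts of a group differ, or whether the groups overlap, and the depth of each heart is unknown. Nkx2-5 has no row, so that the reduced gene could not serve as a check of the labels. Summed over the listed genes, the raw means come to 9183110 reads in control and 11852700 in hypomorphic hearts. That sum is not a library's depth.

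Red cells form in the embryo in successive waves, and primitive erythroblasts from the yolk sac circulate through the heart while they mature. GATA1 is the transcription factor that drives this program together with KLF1 and TAL1, and erythropoietin acts through its receptor EPOR to keep erythroid precursors alive. ALAS2 carries out the first step of heme synthesis in erythroid mitochondria. Band 3, the anion exchanger encoded by Slc4a1, is tied by ankyrin, encoded by Ank1, to the spectrin network under the membrane. In RNA of a whole heart, more red cells and more RNA per red cell cannot be told apart.

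All 8 genes were higher in hypomorphic hearts in the authors' normalized values, as were 41.9% of the 1577 listed genes. The normalized log2 difference, hypomorph minus control, ran from 0.83 for Kel to 1.84 for Hemgn with a median of 1.32, a fold of 2.50, against a median of 0.84 over the 660 listed genes that were higher. A difference of at least 2-fold was reached by 6 of the 8 genes and by 14.5% of the listed genes. The smallest of the 8 folds, 1.77 for Kel, lies above the limit of 1.5 that admits a gene to the table, and a red cell gene below that limit would not be seen here. The raw means, before any scaling, were also higher for all 8 genes, with a median ratio of 1.63, as they were for 41.5% of the listed genes. Without scaling, 5 of the 8 passed 1.5-fold, against 11.0% of the listed genes.

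Among the regulators, the authors' mean for Gata1 was 2162 raw reads in the control against 4212 in the hypomorphic hearts. The ratio of these raw means was 1.95, with a 95% exact interval of 1.89 to 2.01 that covers counting error only and takes each mean as that of 3 hearts. Its normalized log2 value went from -0.44 in control to 1.14 in hypomorphic hearts, a difference of 1.58. Hemgn encodes hemogen, a nuclear protein of hematopoietic cells, and was the gene of the 8 with the largest difference. It had 14816 raw reads in the control against 34339 in the hypomorphic hearts, a ratio of 2.32, and a normalized log2 difference of 1.84, with 26 of the 1577 listed genes above it. Both regulators thus had raw ratios near or above 2 before any scaling.

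Epor, the receptor, had 2676 raw reads in the control against 5283 in the hypomorphic hearts, a ratio of 1.97, and its normalized log2 difference was 1.52. Raw reads of Epor and Gata1 kept nearly the same proportion to each other in both groups, with 1.24 Epor reads per Gata1 read in control and 1.25 in hypomorphic hearts. A proportion of this kind holds whatever single factor is used to scale one group to the other.

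Alas2, the heme enzyme, had 40629 raw reads in the control against 52111 in the hypomorphic hearts. The ratio of raw means was 1.28, below 1.5, while the normalized log2 difference was 1.05. There were 18.8 Alas2 reads per Gata1 read in control hearts and 12.4 in hypomorphic hearts, so that the raw reads of the enzyme fell behind those of the regulator by a factor of 0.658. Scaling each group by 1 factor leaves this value as it is, whereas in the authors' normalized values the genes lay somewhat closer, at log2 differences of 1.05 and 1.58. Apex2, on the other strand, overlaps Alas2 in the annotation, and as it is not stated whether reads were counted by strand, the genes could share some.

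The membrane genes did not move as 1 block. Slc4a1 was the most abundant of the 8 genes, with 110240 raw reads in the control against 173392 in the hypomorphic hearts, a ratio of 1.57 and a normalized log2 difference of 1.30. Ank1 had 16145 and 27297 raw reads, a ratio of 1.69 and a normalized log2 difference of 1.34. Striated muscle makes a small ankyrin from the same gene, and the annotation used here gives Ank1 16 coding transcripts, whose reads a count per gene cannot tell apart; Mir486, Gm15815 and Gm15816 lie within its span. Kel encodes a membrane-bound zinc endopeptidase that carries the Kell blood group antigen in people. Its raw reads, 11709 in the control against 13126 in the hypomorphic hearts, gave the smallest ratio of the 8, 1.12 with a 95% exact counting interval of 1.10 to 1.14. The normalized log2 difference of Kel was 0.83. Kel lagged behind Slc4a1, with 0.106 Kel reads per Slc4a1 read in control and 0.0757 in hypomorphic hearts.

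Trim10 encodes a RING finger protein of the erythroid lineage. It had 9460 raw reads in the control against 11481 in the hypomorphic hearts, a ratio of 1.21, and a normalized log2 difference of 0.93. It stood with Alas2 and Kel at the low end of the raw ratios, whereas Hemgn, Epor and Gata1 stood at the high end and Ank1 and Slc4a1 between them.

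Levels of different genes were compared as raw reads per kb of the longest coding transcript. The order was the same in both groups. In control hearts Slc4a1 had 24255 reads per kb and Alas2 19946, followed by Hemgn with 6270, Kel with 4628, Trim10 with 4229, Ank1 with 1965, Epor with 1463 and Gata1 with 1137. In hypomorphic hearts the first and last of these levels were 38150 reads per kb for Slc4a1 and 2215 for Gata1. The 2 genes with the lowest levels, Gata1 and Epor, were thus among the 3 with the largest ratios. The spread between hearts is unknown, so that the order of close neighbours such as Kel and Trim10 is given only as listed. Even the least read of the 8 genes, Gata1, had more control reads than 81.6% of the listed genes, and all 8 were far above the minimum of 100 reads at which 28.7% of the listed genes were higher by 1.5-fold.

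**Figure D1:**
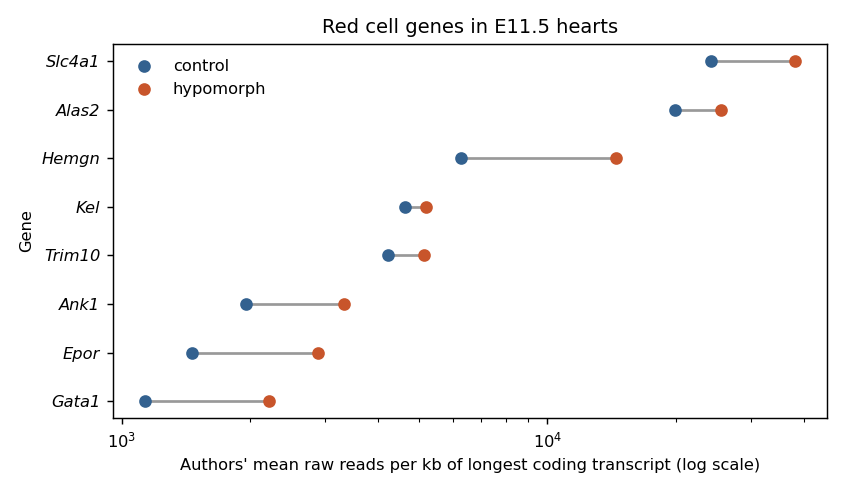
Authors' mean raw reads per kb of the longest coding transcript (log axis) for each of the 8 genes, with a blue point for control and an orange point for hypomorphic hearts, 1 group mean each and no error bar because no value per heart was used. Each orange point lies to the right of its blue point, with the widest step for Hemgn (6270 to 14532) and the narrowest for Kel (4628 to 5188).

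The genes lie on 7 chromosomes. In the mm9 build, the one used by the authors, and the GENCODE M1 annotation, Gata1 lies at chrX:7536386-7555197 on the minus strand and Alas2 at chrX:146981918-147005181 on the plus strand. The autosomal genes are Epor at chr9:21763343-21768020, Hemgn at chr4:46406861-46426378, Slc4a1 at chr11:102210138-102227517, Ank1 at chr8:24085316-24260969, Kel at chr6:41636329-41654338 and Trim10 at chr17:37006519-37014770. Xist, the RNA of the inactive X chromosome, had 16340 raw reads in the control against 53613 in the hypomorphic hearts, a ratio of 3.28, and the sexes of the embryos are not given. The part of sex in the values of the X-linked Gata1 and Alas2 was not tested. Of 42 listed genes placed on the X chromosome, 17 were higher and 25 lower in hypomorphic hearts. That is a share of 40.5% higher beside the 41.9% of all listed genes. The ratios of Gata1 and Alas2 lie within the range of the 6 autosomal genes. Neither comparison is a test of sex, as only genes that passed the AC test are listed.

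The 250 bases before the transcription start were searched for the letters that GATA factors are known to bind, since the 8 genes differed in the same direction and GATA1 is one of them. RefSeq promoter sequences were found for 6 of the 8 genes, the exceptions being Slc4a1 and Ank1. The words were AGATAA and, with another first letter, TGATAA, together with the forms of each that end in G, namely AGATAG for the former and TGATAG for the latter. Read on both strands, they occurred in 5 of these 6 windows and in 26.5% of 32851 promoter windows of the same length. The table of promoters is built on GRCm38.p6, and the windows were placed on mm9 by an exact match. Below, the words are in capitals, on the strand of the gene and 5′ to 3′, and TTATCT is AGATAA read from the other strand:
Alas2: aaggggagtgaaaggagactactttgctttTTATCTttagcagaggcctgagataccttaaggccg
Epor: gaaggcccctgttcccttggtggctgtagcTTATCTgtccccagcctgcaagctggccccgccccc
Trim10: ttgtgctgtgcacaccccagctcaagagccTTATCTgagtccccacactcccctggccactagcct
Kel: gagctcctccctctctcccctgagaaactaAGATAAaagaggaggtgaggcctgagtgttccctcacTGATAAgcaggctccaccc
Hemgn: ctcacacctgtgcagtgTGATAAagaaagt

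On mm9 these stretches are chrX:146981844-146981909 (plus strand) for Alas2, chr9:21768039-21768104 (minus strand) for Epor, chr17:37006326-37006391 (plus strand) for Trim10, chr6:41654325-41654410 (minus strand) for Kel and chr4:46417056-46417085 (minus strand) for Hemgn. Counted from the base before the RefSeq start as -1, the word lies at bases -86 to -81 in Alas2, -54 to -49 in Epor and -163 to -158 in Trim10. Kel holds it at both -56 to -51 and -19 to -14. In Hemgn it lies at -13 to -8 of the RefSeq start, which is inside an exon of the GENCODE annotation. The Gata1 window held none of the 4 words. CCACCC, the box known to be bound by KLF1, occurred in 5 of the 6 windows, all except that of Hemgn, and in 28.1% of all windows. It stood at -53 to -48 in Gata1. In Gata1, Alas2 and Kel this box lies inside the span of the GENCODE gene, which begins before the RefSeq start. The E-box word CAGCTG or its variant with another middle base, CAGATG, occurred in 1 of the 6 windows, that of Epor, against 25.5% of all windows, and AAGTG, the core of the NKX2-5 site, in 3 of the 6, those of Epor, Hemgn and Kel, against 40.7%. A match is a description of the letters and shows no binding. The genes were picked as red cell genes, so that these shares say nothing of why they differed between the groups.

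How far each of the 8 genes differed between the groups depended on how the groups were scaled, whereas their order changed in 1 place. The authors' normalization adds a median of 0.47 on the log2 scale to the ratio of raw means over the listed genes, a factor of 1.38 in favour of hypomorphic hearts. With 1 such factor for every gene the 8 genes spanned log2 differences of 0.63 to 1.68, all past 1.5-fold as were 39.6% of the listed genes, and with no scaling 0.16 to 1.21. The total without globins gave nearly the values without scaling and again 5 genes past 1.5-fold, against 10.5% of the listed genes, and centring on the median ratio gave 8, against 41.7%. Scaled to the total of the listed reads, Hemgn, Epor and Gata1 stayed past 1.5-fold, with log2 differences of 0.84, 0.61 and 0.59, against 3.8% of the listed genes. Ank1 and Slc4a1 were then at 0.39 and 0.29, and Alas2, Trim10 and Kel turned lower, at -0.0091, -0.089 and -0.20. That total is mostly globin reads, which were themselves higher. Any scaling by 1 factor keeps the order of the raw ratios by construction, from Hemgn through Epor, Gata1, Ank1, Slc4a1, Alas2 and Trim10 to Kel. The authors' normalized values gave the same order except that Gata1 and Epor changed places.

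**Figure D2:**
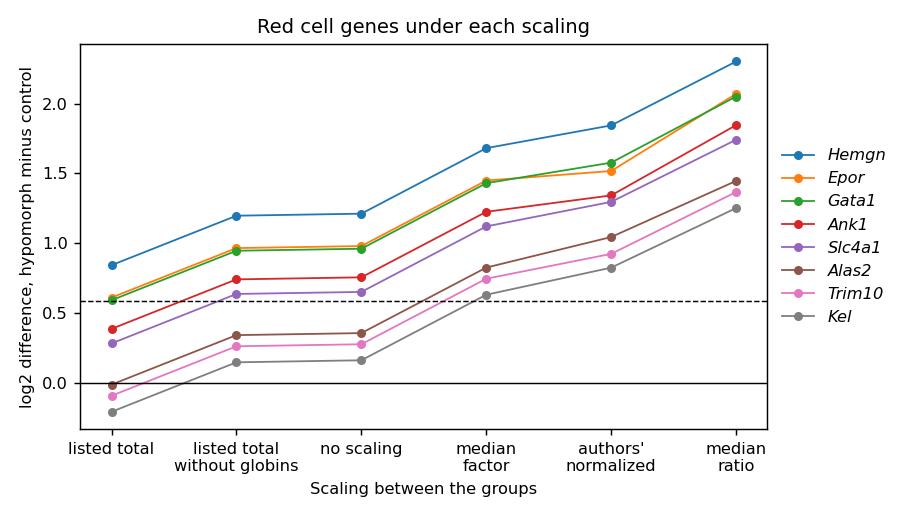
The log2 difference (hypomorph minus control, vertical axis) of each of the 8 genes under 6 ways of scaling the groups (horizontal axis), with points of a gene joined by a line to follow it, the solid line at no difference and the dashed line at 1.5-fold. The lines run parallel between scalings by 1 factor, by construction, and Alas2, Trim10 and Kel fall below 0 when the total of the listed reads is used.

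The number of reads per globin read stays the same whatever single factor is used to scale one group to the other. It is a ratio of group means of raw reads, so that hearts of greater depth, which is unknown, weigh more in it. The 6 listed globin genes summed to 5525470 raw reads in the control against 8158050 in the hypomorphic hearts, a ratio of 1.48, though near-identical globin genes can take each other's reads. Relative to this sum, Hemgn was higher by a factor of 1.57, Epor by 1.34, Gata1 by 1.32, Ank1 by 1.15 and Slc4a1 by 1.07. Alas2 was at 0.869 times its control proportion, Trim10 at 0.822 and Kel at 0.759. Of all listed genes, 11.3% had a raw ratio above that of the summed globins, against 5 of these 8. Hemgn went from 2.68 to 4.21 reads per 1000 globin reads, while Kel went from 2.12 to 1.61. The globins were themselves split. Hbb-bh1, with a raw ratio of 2.02, lay near Gata1 and Epor, Hba-x was at 1.72, and Hbb-y at 1.37, Hba-a1 at 1.35, Hba-a2 at 1.34 and Hbb-b1 at 1.13 lay nearer to Alas2 and Kel.

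A wider list of 64 red cell genes, the 8 included, was drawn up by role with earlier results of these data known, so that its counts are descriptions. Of the 64, 44 have a row, the 8 among them, all 44 higher in the normalized values against 41.9% of the listed genes. Their median normalized log2 difference was 1.11, and 19 of the 44 passed 1.5-fold in raw ratio against 11.0% of the listed genes. Scaled to the total of the listed reads, 5 of the 44 passed 1.5-fold, against 3.8%. The other 20 genes, Kit, Myb, Gata2 and Ahsp among them, have no row, which says nothing of their level.

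Regulators had 7 of 14 genes listed, with a median raw ratio of 1.79. Gfi1b, a transcriptional repressor needed for erythroid and megakaryocytic maturation, had the largest ratio of the whole list, 2.44 (882 to 2153 raw reads), and Klf1, the activator of adult globin and membrane genes, was at 1.79. Tal1 was at 1.45, Nfe2 at 1.24 and Zfpm1, whose product FOG1 is the partner of GATA1, at 1.11. Zfpm1 stood at a normalized log2 difference of 0.61, close to the limit of the table. The regulators thus spanned nearly the whole range of the list, with Hemgn and Gata1 in its upper part.

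Of 7 receptor and signalling genes, 3 were listed. Tfr2, listed under its older symbol Trfr2 and known to associate with EPOR, had a raw ratio of 1.89, close to the 1.97 of Epor. Tfrc, the transferrin receptor by which cells take up iron, was far more abundant, with 23121 raw reads in the control against 25303 in the hypomorphic hearts, and had a ratio of 1.09. Many cell types of the heart make Tfrc.

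The genes of heme synthesis and iron supply had 12 of 14 listed and moved in a narrow band, with raw ratios from 1.16 to 1.65 and a median of 1.33. Alas2, at 1.28, was below this median. The largest ratio was that of Cpox, which makes protoporphyrinogen, at 1.65, followed by Alad at 1.51 and Abcb10 at 1.46. Fech, which inserts iron into the ring, was at 1.32, and Slc25a37, the mitochondrial iron importer, at 1.34 with 81312 raw reads in the control against 108632 in the hypomorphic hearts. Only 2 of the 12 genes, Cpox and Alad, exceeded the ratio of the globin sum.

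For membrane and membrane skeleton genes, 14 of 18 were listed and the median raw ratio was 1.57, with 10 of the 14 above the ratio of the globin sum. The spectrin chains, listed as Spna1 and Spnb1, had ratios of 1.65 and 1.85, so that the partners of ankyrin lay on both sides of Ank1 at 1.69. The band 3 partner Epb4.2, protein 4.2, was at 1.35 against 1.57 for Slc4a1. Among the blood group proteins, Rhd was at 1.76, Rhag at 1.56 and Icam4 at 1.98, whereas Kel and Xk, whose products form 1 complex, were at 1.12 and 1.30, the lowest pair of the 14. Of 11 other red cell genes, 8 were listed, with a median of 1.32. Bpgm, the enzyme that makes 2,3-bisphosphoglycerate, had the smallest ratio of the list, 1.02, and Trim58 was at 1.07 beside Trim10 at 1.21.

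**Figure D3:**
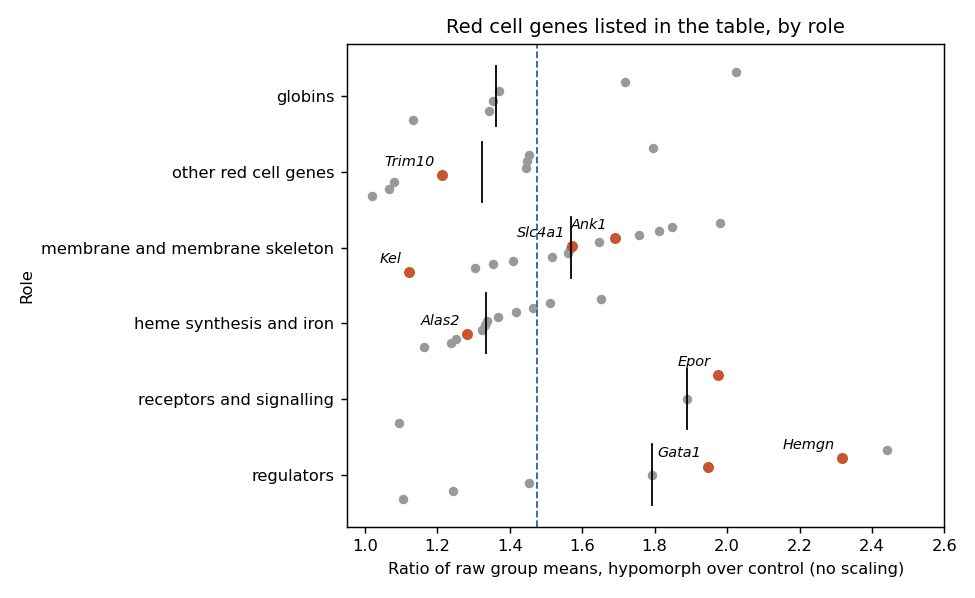
Ratio of raw group means, hypomorph over control without scaling (horizontal axis), for each listed gene of the wider list and the globins by role (vertical axis), with the 8 genes in orange and named, the others in grey, and a black bar at the median of each role. The dashed line is the ratio of the summed globin reads, 1.48. Gata1, Hemgn, Epor, Ank1 and Slc4a1 lie to its right and Alas2, Kel and Trim10 to its left. The bars of heme synthesis (1.33), other red cell genes (1.32) and the globins themselves (1.36) lie left of it.

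In the authors' own annotation, the term erythrocyte differentiation is attached to 9 listed genes, Gata1 and Trim10 among them, of which 8 were higher and 1, Etv2, was lower. Erythrocyte development is attached to 7 listed genes, Gata1 and Ank1 included, all 7 higher, and heme biosynthetic process to 6, all higher, against 41.9% of the listed genes. Alas2 does not carry the term heme biosynthetic process there. Porphyrin-containing compound biosynthetic process is attached to 9 listed genes, Ank1 among them, all 9 higher. Cortical cytoskeleton is attached to 7, Ank1 and Slc4a1 included, of which 6 were higher and 1, Sele, was lower. These terms share genes with the list by role and are no separate evidence.

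Markers of other blood and heart cells were set beside the red cell genes. The megakaryocyte and platelet list, a lineage that also uses GATA1, had 2 of 11 genes listed, both lower, as were 58.1% of all listed genes. Ppbp went from 2218 to 951 raw reads, a ratio of 0.429, and Treml1 from 759 to 320. Of 12 macrophage markers 4 were listed, all lower, with raw ratios from 0.0928 for Lyz2 to 0.532 for Aif1. The 4 summed to 4489 raw reads in the control against 817 in the hypomorphic hearts, of which Lyz2 alone made up 3289 and 305. Lyz2 can share reads with its close paralog Lyz1. Of 12 cardiomyocyte markers 2 were listed, Myl7 with a raw ratio of 1.13 and Nppa with 0.453. None of 8 endothelial and endocardial and none of 8 epicardial and mesenchymal markers had a row, and most markers that define the heart, such as Tnnt2 and Myh6, have none, so that the labelled tissue could not be checked on them. The listed platelet and macrophage markers thus lay in the direction of most listed genes and the red cell genes in the other; the part of the cell makeup of the samples in these values was not tested.

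The normalized log2 difference of a gene minus the log2 ratio of its raw means is called the gap here. For the 8 genes it was larger than for most listed genes. It ran from 0.54 for Epor to 0.69 for Alas2 on the log2 scale, with a median of 0.64, against quartiles of 0.44 and 0.50 over all listed genes, so that all 8 exceeded the upper quartile. A large gap itself helps a gene to be listed as higher. Among the 282 genes listed as higher with at least 1000 hypomorphic reads, the median gap was 0.50 and the upper quartile 0.58. Of the 8 genes, which are among the 282, 7 exceeded that quartile, all but Epor, as did 11.2% of all listed genes. That share also takes in genes listed as lower and genes with fewer reads, whereas the quartile was set on the 282. If the raw value is the arithmetic mean of the hearts and the normalized value the mean of their logs after scaling each heart by 1 factor, a larger gap arises where the raw reads of the control hearts differ more among themselves than those of the hypomorphic hearts do; this was not tested, and the file does not define the normalization. The 6 listed globins had gaps of 0.62 to 0.69.

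**Figure D4:**
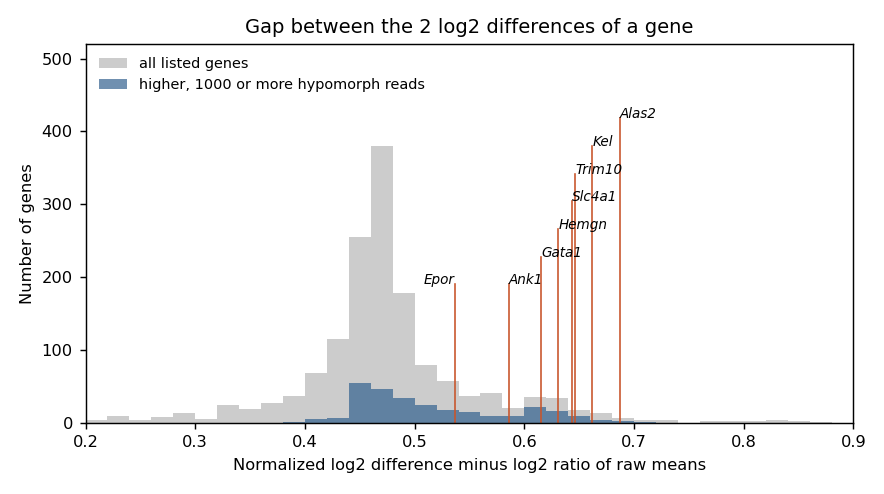
Number of genes (vertical axis) by the gap, the normalized log2 difference minus the log2 ratio of raw means (horizontal axis, bins of 0.02), for all listed genes in grey and for genes listed as higher with at least 1000 hypomorphic reads in blue, with orange lines at the 8 genes, whose heights only make room for the names. Most genes lie near 0.47, and 7 of the 8 lie to the right of 0.58; 65 genes fall outside the range of 0.2 to 0.9 that is drawn.

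For Kel the control value, 0.13, and the hypomorphic value, 0.96, were both above the baseline of the gene, and so were those of Trim10, 0.06 and 0.98, as for 5.33% of the listed genes. The same held for 72 of the 660 genes listed as higher, for 8 of the 44 listed genes of the wider list and for 4 of the 6 listed globins. The file does not define the baseline. If it is the median of the 6 hearts, both group means can lie above it only where at least 1 hypomorphic heart lies below a control heart. For the other 6 of the 8 red cell genes the control value was below the baseline and the hypomorphic value above it. These values ran from -0.04 and 1.01 for Alas2 to -0.64 and 1.21 for Hemgn, and they say nothing of overlap.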

How the data were processed

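Whole-heart total RNA of 3 control and 3 hypomorphic embryos was made into libraries with a TruSeq kit and sequenced by the authors on a Genome Analyzer IIx. Per the submitters' processing notes and the methods, CASAVA 1.4 and TopHat were used with the mm9 genome, and counts on RefSeq genes were tested in Avadis NGS (AC test, fold change of at least 1.5). The deposited raw values are the authors' mean estimated counts per group, and the deposited normalized values are log2 means of each group, by a method not given in the sources used here. The columns of the authors' own fold changes were not used.

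Log2 differences, raw ratios and their gap were computed for 1577 genes, with 5 other scalings between the groups. No test was run, as planned for group values. Intervals are exact binomial intervals at 95% of the summed reads and cover counting error only. Lengths are those of GENCODE M1 coding transcripts. The calculations were tested on simulated hearts. The software was scipy 1.17.1, pandas 2.3.3, numpy 2.4.6 and, for plots, matplotlib 3.10.9, under Python 3.11.15. The named genes are the 8, the listed genes of the wider list, globins and marker lists, and Xist; not every listed one is described. Etv2, Sele, Mt2, Pklr, Myh11, Aqp3 and Kcnn4 were named after their values were seen. The 8 genes and all lists were chosen with earlier results of these data known, and the annotation terms and the gap were added after values were seen. 4 genes of the wider list were matched through other symbols in the membrane group and 1 among the receptors.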

Additional observations from a re-analysis of the deposited data

How the results depend on the processing

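All 8 genes were higher by at least 1.5-fold in the authors' normalized values, against 41.9% of the listed genes. The number was again 8 with the median factor (39.6%), with the median ratio over listed genes (41.7%) and with at least 100 raw reads (28.7%). The median factor is taken from the authors' own normalized values, and all 8 genes were far above 100 reads. Neither setting is therefore a separate check. At a fold of at least 2 there were 6 of the 8, against 14.5% of the listed genes. The number past 1.5-fold fell to 5 without scaling (11.0% of the listed genes), to 5 with the listed total without globins (10.5%) and to 3 with the listed total (3.8%). Under the listed total Alas2 (-0.0091), Trim10 (-0.089) and Kel (-0.20) reversed on the log2 scale. The same shares of the listed genes stand beside the counts of the wider list that follow. For the wider list the number of genes higher by at least 1.5-fold, 44 as deposited, was 19 without scaling, 18 with the listed total without globins, 5 with the listed total and 28 at a fold of at least 2, and it was 44 with the median ratio, 41 with the median factor and 39 by symbol alone. Of 40 values of single genes under other scalings, 29 stayed past 1.5-fold, 8 were higher but under it and 3 reversed. The other scalings multiply the raw means by 1 factor per group, whereas the distance of the authors' normalized values from the raw ratios differs by gene, and totals and medians over called genes are not depths. The order of the 8 by reads per kb was the same with the union of exons. No paired analysis was possible because values of single hearts are not in the table, and for the same reason leaving out a heart was not run.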

Other observations

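Among genes listed as higher with at least 1000 hypomorphic reads, 92 had a gap within the range of the 8 red cell genes, the 8 themselves by construction. Of the other genes of the wider red cell list and the globins with that many reads, 28 of 40 lay in this range, and of the genes in neither, 56 of 234. Of the 56, chosen after their values were seen, Mt2, a metallothionein, had the largest normalized log2 difference, 2.57, from 3682 to 13565 raw reads. Pklr, which encodes the pyruvate kinase of liver and red cells, followed with 2.33 and went from 2745 to 8757 raw reads, a ratio of 3.19 that exceeded those of all 44 listed genes of the red cell list. Myh11, a myosin gene, was next at 1.78, from 482 to 1082 raw reads. Aqp3, a water and glycerol channel, was at 1.61 and Kcnn4, the calcium-activated potassium channel of red cells, at 1.27. The 56 were not sorted by cell type.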
